A study of Mus musculus with 28 samples.

Results

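The suppressor of cytokine signalling (SOCS) family holds 8 genes in the mouse, Socs1 to Socs7 and Cish. They were taken by name from the count table, and all 8 of the 8 were found among its 55487 genes. Each is described here over 28 RNA-seq libraries of hypothalamus, by fraction, time, genotype and leptin treatment.

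Cytokine receptors, the leptin receptor LepRb among them, signal through Janus kinases (JAK) that phosphorylate STAT transcription factors. STATs turn on SOCS genes, and the SOCS proteins then dampen the receptor that induced them, so the family works as a negative feedback loop. Each protein carries an SH2 domain, which binds phosphotyrosine, and a SOCS box, which recruits elongins and a cullin to mark bound proteins for degradation. In hypothalamic neurons Socs3 is known as a leptin-induced inhibitor of LepRb.

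All mice carried LepRb-eGFP-L10a, a ribosomal protein fused to eGFP that marks ribosomes of LepRb cells. The sources used here do not give the driver of the transgene. Male and female animals of 10 to 13 weeks lost access to food when the lights came on and were injected intraperitoneally with metreleptin, a leptin analogue, at 5 mg/kg or with vehicle, which is named as saline in one label and as PBS in another. Translating ribosome affinity purification (TRAP) then split each of 14 hypothalamic lysates into RNA on tagged ribosomes (beads) and the RNA left behind (depleted fraction). At 10 h there were 1 leptin and 2 vehicle lysates of LepRb-eGFP-L10a;Lep ob/ob mice, in which the leptin gene makes no functional hormone. Mice without the ob mutation, called WT here, gave 3 leptin and 1 vehicle lysates at 10 h and 3 leptin and 4 vehicle lysates at 3 h. Whether a lysate holds 1 mouse or a pool is not given, so the p-values measure the spread between lysates only. The 3 sequencing runs held ob/ob 10 h, WT 10 h and WT 3 h libraries separately, which means that time, genotype and run cannot be told apart; every contrast of leptin with vehicle stays within a run.

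Library totals ranged from 19649105 to 42267040 counts, and all 8 genes passed the filter of at least 10 counts in at least 3 libraries in every fit. The smallest count of a family member in any library was 37, for Socs3. Levels are counts scaled to a common library total by TMM (CPM, the usual per-million scale). The 18 LepRb neuron markers summed to 2445 to 4048 CPM in beads, against 262 to 771 CPM in the depleted fraction. Pituitary transcripts stood apart in both libraries of the WT 3 h leptin lysate f2 (1360 CPM in its bead and 3079 CPM in its depleted library, summed over the list) and of the vehicle lysate m3 (112 and 312 CPM), and the ob/ob leptin lysate had 56.3 and 171 CPM. Results that f2 and m3 change are given without them.

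Divided by exon length, Socs5 and Socs7 made up most of the family's RNA. In the 7 vehicle bead libraries Socs5 stood at 21.4 ± 1.15 CPM per kb (mean ± SD) and Socs7 at 12.6 ± 0.595 CPM per kb. Both are less studied members; Socs5 is known for acting on the EGF receptor and on interleukin-4 signalling, and Socs7 for binding insulin signalling proteins. Then came Socs6 at 2.84 ± 0.468, Socs3 at 2.51 ± 1.37 and Socs4 at 2.43 ± 0.444 CPM per kb, which did not differ beyond their spread over these pooled libraries. The place of Socs3 varied by group. In WT 3 h vehicle beads (n = 4) it had 3.43 ± 0.314, above Socs6 at 2.52 ± 0.202 and Socs4 at 2.34 ± 0.206 CPM per kb. The WT 10 h vehicle bead library had 2.72 for Socs3 and 3.11 for Socs6. In ob/ob vehicle beads (n = 2) Socs3 had 0.578 ± 0.047 CPM per kb. Socs2 at 1.28 ± 0.209, Socs1 at 1.15 ± 0.440 and Cish at 0.960 ± 0.194 CPM per kb closed the order, again within each other's spread. In the 7 vehicle depleted libraries the first 5 places went to Socs5 (25.6 ± 0.363), Socs7 (14.2 ± 0.843), Socs6 (3.79 ± 0.401), Socs4 (3.45 ± 0.274) and Socs2 (1.53 ± 0.136 CPM per kb). Cish, Socs3 and Socs1 lay between 0.811 and 0.909 CPM per kb there, within 1 SD of each other. The exon length is that of all annotated exons together, so a gene transcribed mainly as a short isoform is placed too low.

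**Figure D1:**
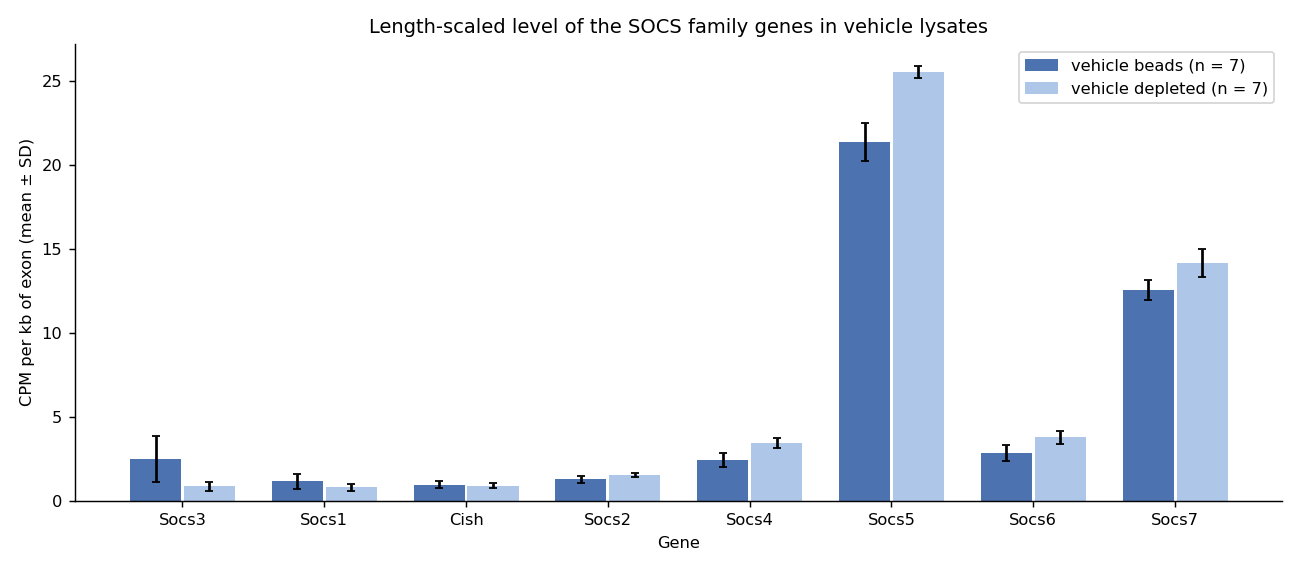
Level of the 8 SOCS family genes in CPM per kb of exon (y axis), as mean ± SD over the 7 vehicle bead libraries (dark bars) and the 7 vehicle depleted libraries (light bars). Socs5 and Socs7 stand far above the other 6 genes in both fractions, and Socs3 has the widest relative spread in beads, with the ob/ob libraries lowest.

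Socs3 lies on chromosome 11 (GRCm38, 117966079 to 117970047, minus strand; ENSMUSG00000053113) and Cish on chromosome 9 (107296026 to 107302784, plus strand; ENSMUSG00000032578). STAT dimers are known to bind the palindrome TTCNNNGAA, which reads the same on both strands. RefSeq promoter windows of GRCm38.p6, from 250 bases before to 50 bases after the start, were at hand for 4 of the 8 genes: Cish, Socs1, Socs3 and Socs4. The motif was found once in the Socs3 window and in 2 places in the Cish window, and in neither the Socs1 nor the Socs4 window. Among all 32851 windows, 8.3% held at least 1 match and 0.457% held at least 2. The Socs3 match starts 154 bases before the start, and the Cish matches begin at the start site and 11 bases after it. Annotated UTR of Cish overlaps the bases before its start, and was not looked up at the matches. The 250 bases before the Socs3 start (chr11:117969367-117969616, minus strand) and 30 bases around the Cish matches (chr9:107296654-107296683, plus strand) are shown because these windows held the motif. Both genes are among the 4 that stood higher with leptin below. Socs1 is among those 4 too, but its window held no match and is not shown. Capitals mark the motif, and a match is no evidence of binding.
Socs3: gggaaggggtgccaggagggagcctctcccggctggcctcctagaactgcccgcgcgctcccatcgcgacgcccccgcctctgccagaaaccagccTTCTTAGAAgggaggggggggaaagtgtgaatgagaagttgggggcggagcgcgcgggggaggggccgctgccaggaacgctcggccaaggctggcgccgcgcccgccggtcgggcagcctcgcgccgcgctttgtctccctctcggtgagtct
Cish: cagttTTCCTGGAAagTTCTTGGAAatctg

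The comparison of beads with the depleted fraction asked where each family member is found. Socs3, Socs1 and Cish were higher in beads, Socs4, Socs5, Socs6 and Socs7 were lower, and Socs2 did not pass the test over the 14 lysates. Socs3 stood 4.66-fold higher in beads (log2 2.22, SE 0.234, edgeR adjusted p = 4.06e-07). With the leptin lysates included, this is close to the 2.28 on the log2 scale of Lepr, the receptor itself. The log2 ratios of Socs1 (0.77, SE 0.128, adjusted p = 1.62e-05) and Cish (0.39, SE 0.100, adjusted p = 0.00158) were smaller. Socs1 is known chiefly as an inhibitor of interferon signalling, and Cish as a STAT5 target. The largest depletion was that of Socs4, which is known to act on the EGF receptor (log2 ratio -0.51, SE 0.0449, adjusted p = 2.24e-09). Socs6, which binds Kit and insulin signalling proteins, followed at -0.44 (SE 0.0555), then Socs5 at -0.26 (SE 0.0274) and Socs7 at -0.14 (SE 0.0282). With 38.6% of all 19682 genes tested higher in beads and 39.3% lower, 3 higher and 4 lower of 8 are shares near the background. In bulk RNA, fewer cells of a type and less RNA per cell cannot be told apart, and TRAP also sets ribosome-bound RNA against RNA that includes unbound transcripts. With libraries scaled by their totals alone, Cish had a log2 ratio of 0.21 and no longer passed (adjusted p = 0.0613). Reads of Cish cannot be told apart from those of Gm17040 and Gm17041, which overlap it on the other strand, because the library kit does not mark strand. Socs6 overlaps 3 processed pseudogenes.

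Because 7 of the 14 lysates came from mice given leptin, the 7 vehicle lysates were also tested alone. Socs3 (log2 ratio 1.42, SE 0.236, adjusted p = 0.000328) and Socs1 (0.48, SE 0.132, adjusted p = 0.00615) were higher in beads, 2 of 8 against 32.7% of all genes. Socs2 (-0.26, SE 0.0779, adjusted p = 0.0109), Socs4, Socs5, Socs6 and Socs7 were lower, 5 of 8 against 32.2% of all genes. Cish had a log2 ratio of 0.07 (SE 0.0981, adjusted p = 0.527). The median log2 ratio within these vehicle lysates was 1.71 for Socs3, under the 2.43 of Lepr.

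Within single lysates the log2 ratio of Socs3 was 2.59 in the ob/ob leptin lysate, against -0.14 and 0.19 in the ob/ob vehicle lysates. It was 2.62, 2.61 and 3.19 in the WT 10 h leptin lysates, against 1.71 in the vehicle lysate of that time. At 3 h it was 2.40, 3.04 and 3.16 with leptin, against 1.59 to 2.01 with vehicle. Socs3 was thus higher in beads in 13 of 14 lysates, and close to even in both ob/ob vehicle lysates. Lepr in those ob/ob vehicle lysates still had log2 ratios of 1.57 and 1.66, somewhat under its 2.07 to 2.73 in WT vehicle lysates. Socs2 stood above 0 in 5 of 7 leptin lysates and in 0 of 7 vehicle lysates, and Cish in 7 of 7 and in 5 of 7. Socs4, Socs5, Socs6 and Socs7 were below 0 in all 14 lysates.

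**Figure D2:**
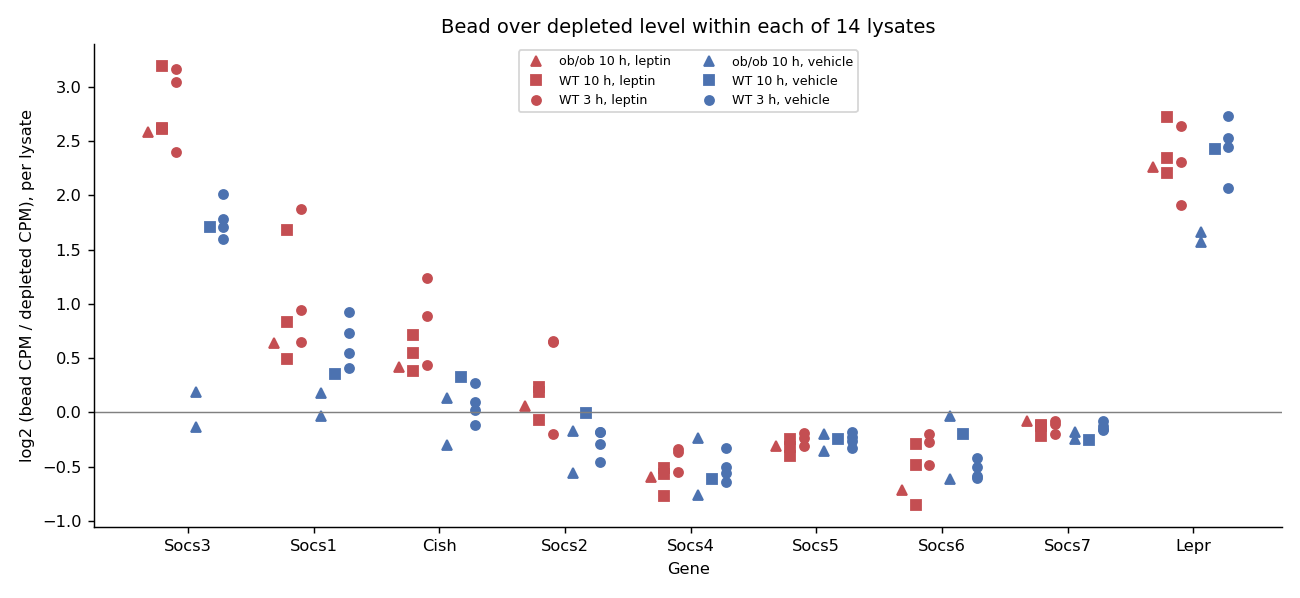
Log2 ratio of bead to depleted CPM (y axis) within each of 14 lysates for the 8 family genes and Lepr (x axis), leptin in red to the left and vehicle in blue to the right; triangles are ob/ob 10 h, squares WT 10 h and circles WT 3 h. Leptin lysates of Socs3 lie between 2.40 and 3.19, above all vehicle lysates, and the pair of ob/ob vehicle lysates lies near 0.

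The comparison of leptin with vehicle asked how the inhibitors respond to the hormone. In beads Socs3 rose with leptin, and it had the smallest p of all 18212 genes when 1 effect was fitted for all strata (WT 3 h, WT 10 h and ob/ob 10 h). Socs2, Cish and Socs1 were higher in every leptin bead library than in every vehicle bead library of the same stratum, but did not pass the test over all genes. In ob/ob and in WT at 10 h an arm held 1 library, and how many of all genes separate in this way was not counted. Socs7 in WT 10 h beads and Socs6 in WT 3 h beads lay apart likewise. In the other direction, leptin lay wholly below vehicle for Socs6 in ob/ob beads and for Socs5 and Socs6 in WT 10 h beads. Socs4, Socs5, Socs6 and Socs7 showed values near 0.

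Socs3 stood at 14.4 CPM in the ob/ob leptin bead library, against 1.77 and 1.58 CPM in ob/ob vehicle beads. WT 10 h beads had 19.2, 15.9 and 29.5 CPM with leptin, against 7.86 CPM with vehicle. WT 3 h beads had 26.0, 57.7 and 47.2 CPM with leptin, against 8.93, 11.1, 9.73 and 9.89 CPM with vehicle. The arms did not overlap in any stratum, though in ob/ob and in WT at 10 h an arm held 1 library. The share of all genes that separate so was not counted. The ob/ob leptin library was above every vehicle library of either genotype. The effect shared by the strata was 4.4-fold (log2 2.14, SE 0.228, edgeR adjusted p = 0.0024). Socs3 was 1 of the 4 genes called there, which is 0.022% of those tested. Leaving out each lysate in turn kept the log2 effect between 1.93 and 2.38 and the adjusted p between 0.000118 and 0.026.

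By time, the Socs3 effect was 4.88-fold at 10 h over both genotypes (log2 2.29, SE 0.308, adjusted p = 0.0204) and 4.42-fold at 3 h (log2 2.14, SE 0.249, adjusted p = 0.00355). It was the only family member called at either time, against 0.022% of all genes at 10 h and 0.022% at 3 h. At 10 h the ob/ob mice alone had an 8.69-fold difference (log2 3.12, SE 0.436, adjusted p = 0.0181) where 0.0275% of genes were called. In WT at 10 h the 2.74-fold difference (log2 1.45, SE 0.412, unadjusted p = 0.00335) had an adjusted p of 0.902. There edgeR called 0% of genes, 879 had an unadjusted p under 0.05, and other tools and settings called 0 to 184 genes. Socs3 passed there with no filter on low counts, at nearly the same log2 value (1.44) but with an SE of 0.2665 against 0.412. Both 10 h contrasts have an arm of 1 library, which was assumed to vary like the other groups. The ob/ob call was lost without either vehicle lysate (adjusted p = 0.116 and 0.479), with voom (0.817) and with glial markers as a covariate (log2 2.75, adjusted p = 0.276). The call at 10 h over both genotypes was lost without ob/ob vehicle lysate 2 (adjusted p = 0.0654).

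Markers of glia had lower values with leptin in the same bead libraries. None of the 12 astrocyte, 12 oligodendrocyte and 12 microglia markers had a positive shared effect in beads (median log2 effects -0.66, -0.50 and -0.78), although none was called. The same held for the 12 endothelial and mural markers (median -0.65), while 11 of 12 ependymal and tanycyte markers were negative (median -0.46) and all 6 pituitary markers tested were positive (median 0.99), again with none called. The glial markers' summed levels in WT 3 h beads were 859 to 1342 CPM with leptin and 912 to 1732 CPM with vehicle for astrocytes, 1625 to 2422 and 1798 to 3549 CPM for oligodendrocytes, and 30.2 to 58.5 and 40.3 to 93.8 CPM for microglia. In WT 10 h beads they were 779 to 856 CPM with leptin and 997 CPM with vehicle for astrocytes, 1141 to 1281 and 2128 CPM for oligodendrocytes, and 26.6 to 36.5 and 55.9 CPM for microglia. In ob/ob beads they were 819 CPM with leptin and 1031 to 1318 CPM with vehicle for astrocytes, 1504 and 1886 to 2654 CPM for oligodendrocytes, and 27.0 and 40.0 to 63.3 CPM for microglia. No glial marker was at 0 in any library. Summed endothelial and mural markers in beads were 46.6 CPM with leptin and 61.7 to 83.7 CPM with vehicle in ob/ob, 23.1 to 33.9 and 39.2 CPM in WT at 10 h, and 57.9 to 81.3 and 57.2 to 208 CPM in WT at 3 h. With the mean log2 level of the astrocyte, oligodendrocyte and microglia markers (glial index) as a covariate, the shared Socs3 effect was 1.87 on the log2 scale and no longer passed (adjusted p = 0.139). The effect then was 1.90 at 10 h (adjusted p = 0.221) and 1.91 at 3 h (adjusted p = 0.0675). Lepr itself had a log2 leptin effect of -0.08 at 3 h (SE 0.184, adjusted p = 0.939).

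**Figure D3:**
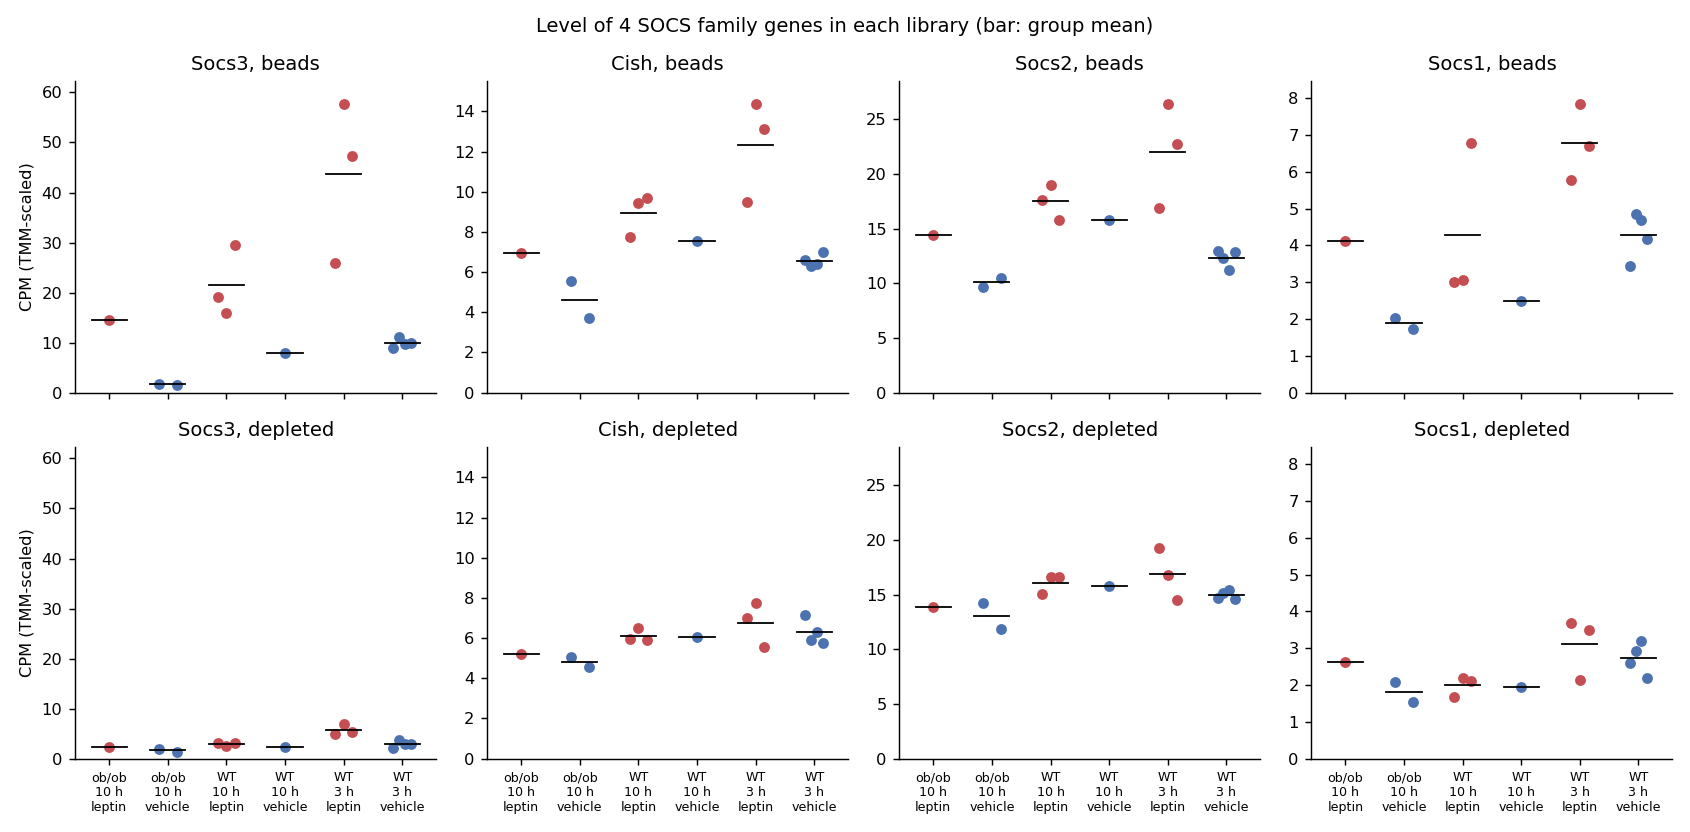
CPM (y axis) of Socs3, Cish, Socs2 and Socs1 in each library by group (x axis), beads above and depleted fraction below, with leptin red, vehicle blue and a bar at the group mean. In beads each leptin point lies above every vehicle point of its own genotype and time, and Socs3 is lowest, under 2 CPM, in the ob/ob vehicle beads. Groups hold 1 to 4 libraries, and how many of all genes separate in this way was not counted.

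Socs2 and Cish are best known as STAT5 targets that restrain growth hormone and related receptors. Cish had 6.97 CPM in the ob/ob leptin bead library, against 5.57 and 3.70 CPM with vehicle. In WT beads it had 7.75, 9.45 and 9.69 CPM with leptin against 7.56 CPM with vehicle at 10 h, and 9.47, 14.4 and 13.1 CPM with leptin against 6.30 to 6.98 CPM with vehicle at 3 h. Its shared effect was 1.61-fold (log2 0.68, SE 0.142, adjusted p = 0.0898), and that at 3 h was 1.88-fold (log2 0.91, SE 0.181, adjusted p = 0.199). The margin over vehicle was wide at 3 h, where leptin averaged 12.3 ± 2.55 CPM and vehicle 6.57 ± 0.297 CPM (SD, n = 3 and 4), and narrow at 10 h.

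Socs2 had 14.4 CPM in the ob/ob leptin bead library, against 9.68 and 10.5 CPM with vehicle. In WT beads it had 17.6, 19.0 and 15.8 CPM with leptin against 15.7 CPM with vehicle at 10 h, and 16.8, 26.4 and 22.7 CPM with leptin against 11.2 to 12.9 CPM with vehicle at 3 h. The arms at 3 h lay far apart, while at 10 h the lowest WT leptin library nearly equalled the vehicle library. The shared effect was 1.52-fold (log2 0.60, SE 0.124, adjusted p = 0.0853) and the 3 h effect 1.79-fold (log2 0.84, SE 0.149, adjusted p = 0.106).

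Socs1 had 4.12 CPM in the ob/ob leptin bead library, against 2.03 and 1.73 CPM with vehicle. In WT beads it had 3.00, 3.06 and 6.78 CPM with leptin against 2.48 CPM with vehicle at 10 h, and 5.78, 7.84 and 6.71 CPM with leptin against 3.45 to 4.86 CPM with vehicle at 3 h. One WT 10 h leptin library stood far above the other pair. The shared effect was 1.72-fold (log2 0.78, SE 0.193, adjusted p = 0.174).

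The calls of these 3 genes depended on the test, on the filter and on lysate f2. With no filter on low counts all 3 passed in the shared comparison (adjusted p = 0.000144 to 0.000825). DESeq2 called Socs2 (adjusted p = 0.0026), Cish (0.00205) and Socs1 (0.0145) in the shared comparison of beads, and Socs2 (0.000519) and Cish (0.00259) at 3 h. Without the leptin lysate f2, edgeR called Socs2 (adjusted p = 0.00918) and Cish (0.04) at 3 h, and both in the shared comparison (0.0406 and 0.0436). Without f2 and m3, it also called Socs1 in the shared comparison (0.0417).

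Socs5, the most abundant member, had a shared log2 effect in beads of 0.03 (SE 0.0632). Socs4 stood at 0.07 (SE 0.128), Socs6 at -0.0038 (SE 0.0963) and Socs7 at 0.07 (SE 0.0614), with adjusted p of 0.668 to 0.989 over these 4 genes. Over all 28 libraries Socs5 spanned 127 to 176 CPM (median 157), Socs7 85.1 to 114 CPM (median 98.0), Socs6 24.8 to 54.2 CPM (median 38.2) and Socs4 13.0 to 26.6 CPM (median 22.2). The median shared effect over the 8 members was 0.34 on the log2 scale, against 0.01 over all genes.

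Socs3 thus took a larger part of the family's length-scaled RNA in leptin beads. Its share was 10.4% in the ob/ob leptin bead library, against 1.37% ± 0.232 with vehicle (SD, n = 2). In WT it was 14.7% ± 4.31 with leptin (n = 3) against 5.95% with vehicle at 10 h, and 23.4% ± 6.98 (n = 3) against 7.42% ± 0.695 (n = 4) at 3 h. The family's sum in WT 3 h beads was 63.4 ± 5.59 CPM per kb with leptin and 46.3 ± 1.26 CPM per kb with vehicle. In the depleted fraction the group means of the Socs3 share lay between 1.13% and 3.63%.

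In the depleted fraction leptin was set against vehicle in the RNA that the beads left behind. LepRb neuron markers still summed to 262 to 771 CPM there. RNA of other cells, unbound transcripts and LepRb ribosomes missed by the beads cannot be told apart in it. Socs3 had 2.40 CPM in the ob/ob leptin library, against 1.94 and 1.38 CPM with vehicle. In WT it had 3.12, 2.6 and 3.22 CPM with leptin against 2.41 CPM with vehicle at 10 h, and 4.94, 7.0 and 5.27 CPM with leptin against 2.22 to 3.68 CPM with vehicle at 3 h. The arms again did not overlap in any stratum. Leptin also lay wholly above vehicle for Socs1, Cish, Socs5 and Socs6 in ob/ob, for Socs6 in WT at 10 h and for Socs5 in WT at 3 h. Socs4 in WT at 10 h lay wholly below. The share of all genes that separate in this way was not counted. The shared effect was 1.69-fold (log2 0.75, SE 0.145, adjusted p = 0.0371), and Socs3 was the 1 family member among the 0.623% of genes called. That call was lost (adjusted p up to 0.113) on leaving out any 1 of 8 lysates, which were WT 3 h vehicle m1, WT 3 h leptin f2 and f4, WT 10 h leptin 1 and 3, WT 10 h vehicle 1, ob/ob vehicle 2 and ob/ob leptin 1. It was also lost with the glial index as a covariate (log2 0.66, adjusted p = 0.393), and 5 of 12 microglia and 3 of 12 astrocyte markers fell with leptin in these libraries. So did 2 of 12 ependymal and tanycyte markers and 2 of 18 LepRb neuron markers, Npy and Pdyn.

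No member was called in the depleted fraction at 10 h (Socs3 log2 0.43, SE 0.225, adjusted p = 0.598; 0.00523% of genes called) or at 3 h (Socs3 0.97, SE 0.174, unadjusted p = 5.35e-05, adjusted p = 0.2). At 3 h edgeR called 0% of genes there, 1813 had an unadjusted p under 0.05, other tools and settings called 0 to 640, and DESeq2 called 1 member, Socs3 (adjusted p = 0.00154). The 3 other members higher in leptin beads had shared log2 effects in the depleted fraction of 0.22 (Socs1), 0.12 (Socs2) and 0.09 (Cish), none of them called.

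The difference of the leptin effect between beads and the depleted fraction was tested within lysates. For Socs3 the shared effect was 2.52-fold larger in beads (log2 1.33, SE 0.201, adjusted p = 0.0357), the smallest p of 19682 genes, of which 0.0305% were called. The adjusted p ranged from 0.00382 to 0.154 on leaving out single lysates, and the call was lost without any 1 of 10: WT 3 h vehicle m1, m3 and f3, WT 3 h leptin m24 and f4, WT 10 h leptin 1, WT 10 h vehicle 1, ob/ob vehicle 1 and 2, and ob/ob leptin 1. The difference itself stayed between 1.11 and 1.5 on the log2 scale. Differences for Cish (0.60, SE 0.156), Socs1 (0.55, SE 0.227) and Socs2 (0.48, SE 0.146) had adjusted p of 0.544, 0.92 and 0.868.

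At 3 h alone, no member was called in that difference (0.0102% of genes were). The values were 1.11 for Socs3 (SE 0.214, adjusted p = 0.35), 0.79 for Cish (SE 0.206) and 0.65 for Socs2 (SE 0.196). Without lysate f2 Socs3 (1.35, adjusted p = 0.0234) and Socs2 (0.95, adjusted p = 0.034) passed, and without f2 and m3 Cish passed too (1.09, adjusted p = 0.04).

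**Figure D4:**
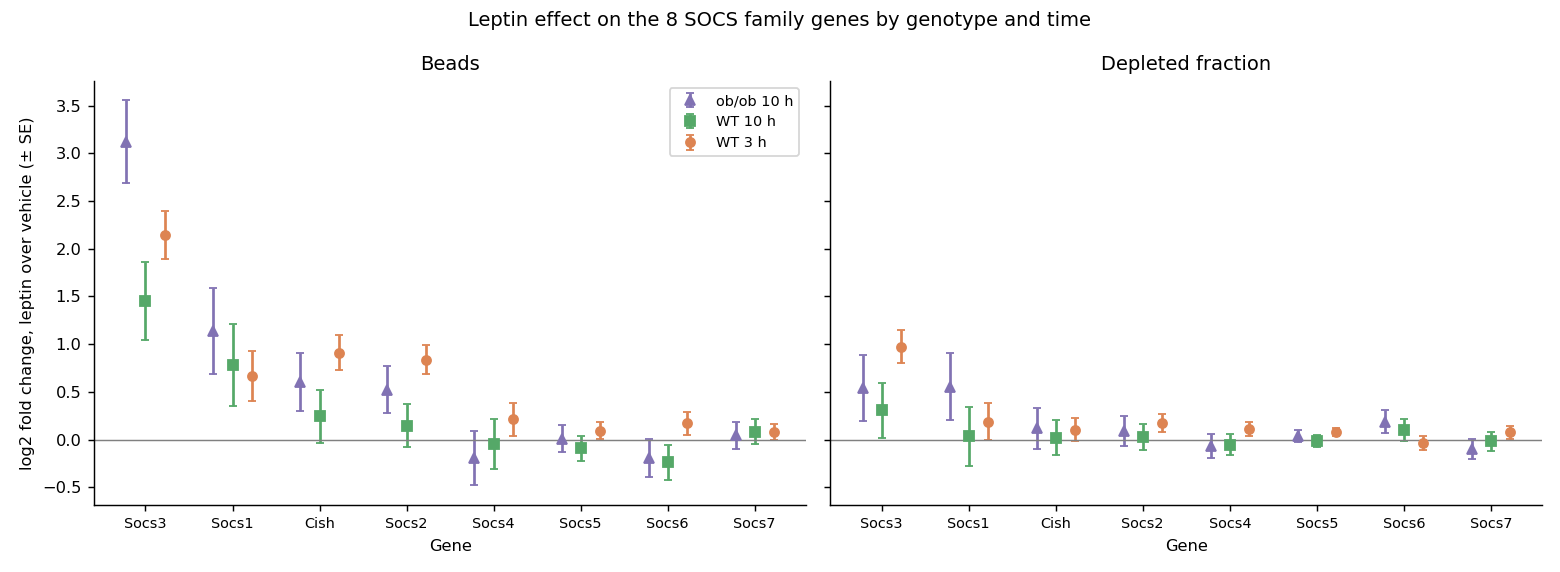
Log2 fold change of leptin over vehicle ± SE (y axis) for the 8 family genes (x axis) in beads (left) and the depleted fraction (right), for ob/ob 10 h (triangles), WT 10 h (squares) and WT 3 h (circles). Socs3 stands highest in beads in all 3 strata, at 3.12, 1.45 and 2.14, while Socs4 to Socs7 lie near 0 in both fractions.

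Whether the response changed with time was tested as the difference of the WT effects in beads, 10 h minus 3 h. It was -0.69 for Socs3 (SE 0.448), -0.69 for Socs2 (SE 0.266, unadjusted p = 0.0206), -0.67 for Cish (SE 0.324) and 0.12 for Socs1 (SE 0.494). No member passed, the lowest adjusted p of these being 0.993. edgeR called 0% of all genes, 547 had an unadjusted p under 0.05, and other tools and settings called 0 to 70; neither DESeq2 nor voom called a member. The 10 h effect hangs on 1 vehicle library, and time cannot be told apart from sequencing run.

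The lowest Socs3 levels of all bead libraries were those of ob/ob mice given vehicle. These 2 libraries held 1.77 and 1.58 CPM, against 7.86 CPM in the WT 10 h vehicle library and 8.93 to 11.1 CPM in WT 3 h vehicle beads. The log2 difference at 10 h was -2.21 (0.216 of the WT level, SE 0.438, unadjusted p = 0.000182), but it did not pass over all genes (edgeR adjusted p = 0.118). No member was among the 0.0769% of genes called. DESeq2 called Socs3 (adjusted p = 0.000227), and edgeR did without the lysate f2 (-2.23, adjusted p = 0.0126), which enters that fit through its estimate of the spread. Cish at -0.69 (SE 0.292) and Socs2 at -0.62 (SE 0.238) had unadjusted p of 0.0332 and 0.0205. With no filter on low counts Socs3 passed as well at nearly the same log2 value (-2.25), with an SE of 0.282 against 0.438. How low-count genes move the estimate of the spread was not tested. Voom did not call Socs3. Of 13 fits that each left out 1 lysate, only that without f2 called it, and the log2 difference stayed between -2.29 and -2.13. Genotype cannot be told apart from sequencing run.

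Other markers differed in the same contrast of vehicle beads. Of the 18 LepRb neuron markers 3 fell in ob/ob, Pomc (-3.16, adjusted p = 0.000737), Nts (-1.77, adjusted p = 0.0484) and Glp1r (-1.31, adjusted p = 0.0441), and the median of the list was -0.62. Their summed level was 3122 to 3877 CPM in ob/ob and 3236 CPM in WT. All 12 endothelial and mural markers (median 0.88) and all 12 astrocyte markers (median 0.23) had positive values, none of them called. Endothelial and mural markers summed to 61.7 to 83.7 CPM in ob/ob and 39.2 CPM in WT, and astrocyte markers to 1031 to 1318 CPM in ob/ob and 997 CPM in WT. The part of these markers in the Socs3 difference was not tested.

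In the depleted fraction the same contrast gave -0.53 for Socs3 (SE 0.325, adjusted p = 0.446), and no member was called where 1.16% of genes were. The difference between the fractions, a comparison added after the values were seen, was -1.70 for Socs3 (SE 0.417, unadjusted p = 0.000891, adjusted p = 1), with 0.0102% of genes called. It passed with no filter on low counts (-1.68, adjusted p = 0.0164). The leptin effect on Socs3 in beads, ob/ob minus WT at 10 h, differed by 1.67 on the log2 scale (SE 0.579, unadjusted p = 0.0123) and did not pass (adjusted p = 1), except with no filter (1.68, adjusted p = 0.00882). edgeR called 0% of genes in that comparison, 251 had an unadjusted p under 0.05, and other tools and settings called 0 to 35. Neither DESeq2 nor voom called a member. With no filter the SE was 0.3737, against 0.579 with the filter. The contrast shares the ob/ob and WT vehicle libraries with the genotype contrast, so the vehicle level enters both.

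Other genes of the pathway were taken as 6 lists and first set between beads and the depleted fraction over all 14 lysates, where 38.6% of all genes were higher and 39.3% lower. Of 24 JAK-STAT genes other than the family, 10 were higher in beads and 7 lower, among them Lepr (log2 2.28) and Stat3, the main LepRb transcription factor (1.49), which is near those shares. All calls among the 11 measured ligase partners, on which the SOCS box acts, went upward (9 of 11, median 0.40), with the elongin Elob at 0.97, Nedd8 at 0.89 and Rbx1 at 0.47. Of 20 receptors and substrates that SOCS proteins act on, 5 were higher (Lepr, and the growth hormone receptor Ghr at 1.38) and 11 lower (Il10ra -1.27, Egfr -1.26, Csf2rb -1.11). Among 20 measured genes for other SOCS box proteins, 10 were higher, led by Asb4 at 3.01, and 7 lower, led by Wsb1 at -1.53. Of 17 STAT3-responsive genes 10 were higher and 3 lower, with Timp1 at 3.90, Serpina3i at 3.61 and Atf3 at 2.91. Of 9 STAT5-responsive genes 2 were higher and 6 lower, among them Igf1 at -0.82. In the 7 vehicle lysates alone the counts were 8 higher and 5 lower for JAK-STAT genes, 8 and 1 for ligase partners, 5 and 10 for receptors and substrates, 8 and 6 for other SOCS box genes, 8 and 6 for STAT3-responsive and 1 and 5 for STAT5-responsive genes.

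With leptin in beads few of these genes were called. At 10 h Stat3 (log2 1.11, adjusted p = 0.00388) and Irf9, the interferon signalling partner of STATs (1.33, adjusted p = 0.0302), rose among the 24 JAK-STAT genes, and Timp1 (3.25, adjusted p = 0.00347) rose among the 17 STAT3-responsive genes. Together with Socs3 these are the 4 genes called in that comparison. At 3 h 3 of the 17 STAT3-responsive genes rose: Atf3, a stress-induced transcription factor (2.27, adjusted p = 0.0453), Arid5a, an RNA-binding protein that stabilises cytokine transcripts (2.06, adjusted p = 0.000773), and Etv6, a transcriptional repressor (1.41, adjusted p = 0.00136). They and Socs3 are the 4 genes called at 3 h. The lists were chosen with earlier results of these data known, so they lend no separate weight to the calls at either time. None of the JAK-STAT genes, ligase partners, receptors and substrates, other SOCS box genes or 8 STAT5-responsive genes was called at 3 h. In the depleted fraction no gene of the 6 lists was called with leptin at 10 h, at 3 h or in the shared comparison. In ob/ob against WT vehicle beads at 10 h, Stat3 (-1.11, adjusted p = 0.0441) and Serpina3n (-2.59, adjusted p = 0.0435) were lower.

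Genes with a pattern most like that of Socs3 were sought over the 12 group means, among 14946 genes with a mean of at least 1 CPM, by the root mean square difference of centred log2 CPM. Atf3 was the nearest at 0.55, followed by Traf3ip3 at 0.59, Serpina3h at 0.61, Serpina3m at 0.61 and Serpina3f at 0.65, where the median gene stood at 1.42. The Serpina3 genes are near-identical copies whose reads the counting may have split, so their values are uncertain. Nearest to Cish were Rgs4 at 0.12, 4931414P19Rik at 0.15 and Deptor at 0.16 (median gene 0.41), and nearest to Socs2 were Ikzf4 at 0.11, Uprt at 0.14 and Syn3 at 0.15 (median gene 0.37). The 12 groups share lysates between fractions, and the difference between beads and the depleted fraction enters this measure. The genes nearest to Socs3 did not all share its log2 leptin effect of 2.14 in beads at 3 h. Atf3 had 2.27, Serpina3h 1.2 (SE 0.616) and Traf3ip3 0.89 (SE 0.276). Serpina3f had 0.20 (SE 0.471) and Serpina3m 0.03 (SE 0.565).

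**Figure D5:**
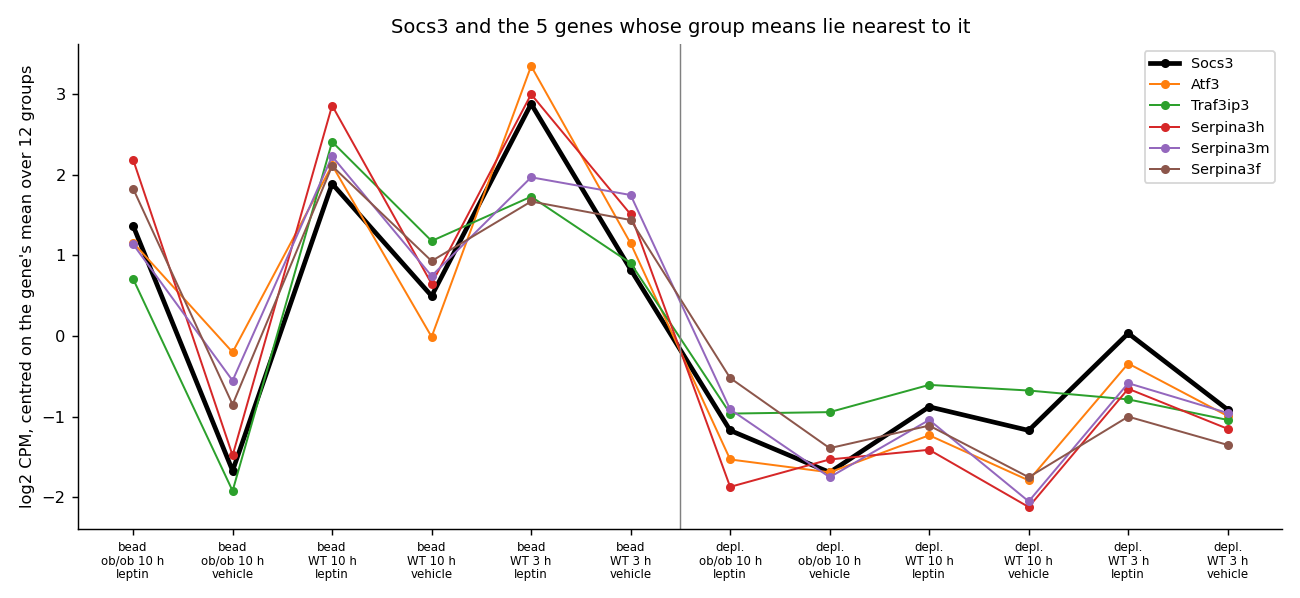
Centred log2 CPM (y axis) of Socs3 and the 5 genes nearest to it over the 12 group means (x axis). All 6 genes are higher in leptin beads than in the depleted fraction of the same lysates, and Socs3 is low in ob/ob vehicle beads, at -1.67, against 1.37 in ob/ob leptin beads.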

How the data were processed

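RNA-seq counts per gene were analysed for 28 libraries (14 lysates, beads and depleted). The deposited counts are whole numbers of reads that the authors left without normalization. Poly(A) libraries were made from RNA with an integrity number of 8 or more and sequenced 4 per lane for 50 cycles, per the labels' protocols. The authors used STAR 2.7.6a and build GRCm38.p6, per the submitters' processing notes. For the counting program, strand setting and annotation, the sources used here name none. A deposited file lists the 3 sequencing runs. Molecular identifiers are not described, so depth bounds counting error only.

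Counts were tested in R 4.3.3 with edgeR 4.0.16: TMM scaling, the robust quasi-likelihood F test, two-sided, Benjamini-Hochberg adjustment over all genes and a threshold of 0.05. Genes needed at least 10 counts in at least 3 libraries. Adjusted p-values are from edgeR unless another tool is named. Bead and depleted libraries were paired by lysate, which the labels give. Deviations from group means correlated within the 10 lysates that could be checked (r 0.0986 to 0.434), 9 of them best with their own partner. Leptin was tested within a fraction over 6 groups, or with terms for stratum and leptin. DESeq2 1.42.0, voom in limma 3.58.1, other scalings and filters, left-out lysates and a glial covariate were alternatives. Levels per kb use all annotated exons of a gene. Leptin in beads at 3 h, the shared leptin effect in beads and the 3 h difference between fractions were checked on simulated data. The other comparisons were not.

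All 8 members are named throughout. Of the lists, up to 5 called genes with the largest change could be named, and 5 or 3 genes nearest to Socs3, Cish or Socs2 by pattern, with a pseudocount of 0.1. The members and lists were chosen with earlier results of these data known.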

Additional observations from a re-analysis of the deposited data

Results flagged for a closer look

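The leptin effect on Socs3 differed between the fractions of the same lysates. The effect shared by the 3 strata was 2.14 on the log2 scale in beads and 0.75 in the depleted fraction. The difference tested within lysates was 1.33 (SE 0.201, edgeR adjusted p = 0.0357). It was positive on leaving out each lysate, at 1.11 to 1.5, but the call was lost without any 1 of 10 of the 14 lysates (adjusted p up to 0.154), with library totals alone (0.0642) and with no replicate block (0.355). Among 16 sets of 4 libraries, each a member in a fraction of the WT 3 h vehicle group, 0 held a library far from the others. Leptin libraries were not checked in this way, so this does not bear on the leptin arms.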

How the results depend on the processing

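Of 3040 log2 values of members under alternatives, 32 lost and 38 gained a call and 0 called values changed sign; the other 2970 kept their side of the threshold, 88 of them uncalled values of the other sign. Member calls moved as follows. In the shared leptin comparison of beads 1 member was called, 4 with no filter, DESeq2 or without lysates m3 and f2, and 0 with the glial covariate; left-out lysates gave 1 to 3. At 10 h in beads 1 was called, 2 with no filter, and 0 with voom or the glial covariate; left-out lysates gave 0 to 1. At 3 h in beads 1 was called, 3 with no filter, DESeq2 or without m3 and f2, and 0 with the glial covariate; left-out lysates gave 1 to 3. In the depleted fraction the shared comparison called 1, and 0 with the glial covariate or without m3 and f2 (left-out lysates 0 to 1), and the 3 h comparison called 0, and 1 with no filter or DESeq2. The shared difference between fractions called 1, 3 with no filter, and 0 with library totals alone or no replicate block (Socs3 1.38, adjusted p = 0.355), with 0 to 1 for left-out lysates. The 3 h difference called 0, 1 with no filter or DESeq2 and 3 without m3 and f2 (left-out lysates 0 to 2). ob/ob against WT vehicle beads called 0, and 1 with no filter, DESeq2 or without m3 and f2 (left-out lysates 0 to 1); ob/ob minus WT leptin called 0, and 1 with no filter (Socs3, adjusted p = 0.00882).

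No value could be had without the single WT 10 h vehicle or ob/ob leptin lysate where a contrast needs it, and no paired analysis of leptin and vehicle lysates was possible because no stratum's arms share more than 1 replicate number. Of 96 mean levels 28 moved by more than 1 SD with plain CPM.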
